A study of Homo sapiens with 6 samples.

Results

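Cyclic nucleotide phosphodiesterases are the enzymes that break down cAMP and cGMP, and 10 of their genes were read by symbol from the 35793 genes listed for cardiomyocytes with and without the kinase STK25: PDE1C, PDE2A, PDE3A, PDE3B, PDE4A, PDE4B, PDE4D, PDE5A, PDE7A and PDE8A. They were chosen by name and not by a measured value, though with earlier results of these data known. Of these genes, 9 averaged 10 or more normalized counts over the libraries, the minimum for a test. The cells were cardiomyocytes on day 15 of differentiation from WTC11, an established human induced pluripotent stem cell line, kept in RPMI medium with B27 and left untreated. Each genotype had 3 biological replicates. The wild-type group (WT) was unedited WTC11, and the knockout group (STK25KO) was a WTC11 derivative made homozygous for loss of STK25 with CRISPR/Cas9. The labels present the lines as a single isogenic pair, so the edit cannot be told apart from any other difference between these lines. The labels do not say whether the replicates were separate differentiations, so p-values measure only the spread between these samples.

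Cells make cAMP with adenylyl cyclases and cGMP with guanylyl cyclases, and phosphodiesterases hydrolyse both messengers, which sets how long and how far in the cell each signal lasts. The families differ in substrate. PDE5A hydrolyses cGMP, PDE4, PDE7 and PDE8 enzymes hydrolyse cAMP, and PDE1, PDE2 and PDE3 enzymes act on both. In heart muscle, PDE3 and PDE4 enzymes are known for limiting the cAMP that beta-adrenergic receptors raise near calcium channels and the sarcoplasmic reticulum, and PDE3 and PDE5 are drug targets.

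The 6 libraries held 22443904 to 53224112 reads assigned to genes, a 2.37-fold range. STK25 itself, read as a check of the labels, had 8119 ± 1168 normalized counts in the wild type and 3720 ± 251 in the knockout (SD, n = 3 each), with no overlap. Its log2 fold change was -1.12 (SE 0.19, limma adjusted p = 0.00903), and without wild-type replicate 1 the adjusted p was 0.0609 (up to 0.0684 over all alternatives). Wild-type replicate 2 and knockout replicate 1 stood apart from the other libraries on the second principal component, which carried 24.1% of the variance, and the labels name no batch. Results that change without these libraries are given both ways. For the marker counts that follow, 12.8% of all tested genes were called. All 10 cardiomyocyte markers were tested and 2 were called, PLN and NKX2-5, both lower. The summed level of all 10 was 629391 to 790322 in the wild type and 891695 to 962581 in the knockout. Total normalized counts per library were 3.39e+07 to 3.91e+07 in the wild type and 3.89e+07 to 4.98e+07 in the knockout. Summed levels also depend on these totals. Of 8 smooth muscle markers 6 were higher in the knockout, with a summed level of 86287 to 98362 against 501865 to 553068. Of 4 ventricular markers 3 were lower (MYL2, IRX4 and HEY2), and of 8 tested atrial and nodal markers 2 were higher and 2 lower. Of 8 fibroblast markers 3 were higher and 1 lower, of 5 epithelial markers 2 higher and 1 lower, of 5 epicardial markers 1 higher, of 5 tested neural markers 3 higher and of 3 tested endoderm markers 1 lower. None of 3 tested pluripotency and 3 tested endothelial markers was called, and of the 7 endothelial markers CDH5, TIE1 and ERG had at most 3 reads in every library. The 3 endothelial markers tested had wild-type and knockout means of 229 and 363 (KDR), 44.8 and 58.8 (TEK) and 38.7 and 35.3 (PECAM1) normalized counts. In these bulk samples, fewer cells of a type and less RNA per cell cannot be told apart, and the part of any cell type in the phosphodiesterase values was not tested.

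Of the 9 tested phosphodiesterases, PDE1C, PDE4B and PDE5A passed an adjusted p of 0.05 in limma, each of them lower in STK25KO. Over all 15536 tested genes, 12.8% passed, 6.79% lower and 5.97% higher. The knockout libraries lay wholly below the wild-type libraries for 5 of the 9 (PDE1C, PDE3B, PDE4A, PDE4B and PDE5A), against 17.2% of all tested genes. They lay wholly above for 2 (PDE4D and PDE8A), against 16.2% of all tested genes, and overlapped for PDE3A and PDE7A. PDE1C and PDE4A reached the mean of 10 only through the wild type, so their place among the tested genes was tied to being lower in the knockout. Without adjustment, 6 of the 9 had a p under 0.05 in either direction, against 27.5% of all tested genes. An exact two-sided permutation test of 3 libraries against 3 cannot go below 0.1 and gave 0.1 for each of the 7 without overlap.

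**Figure D1:**
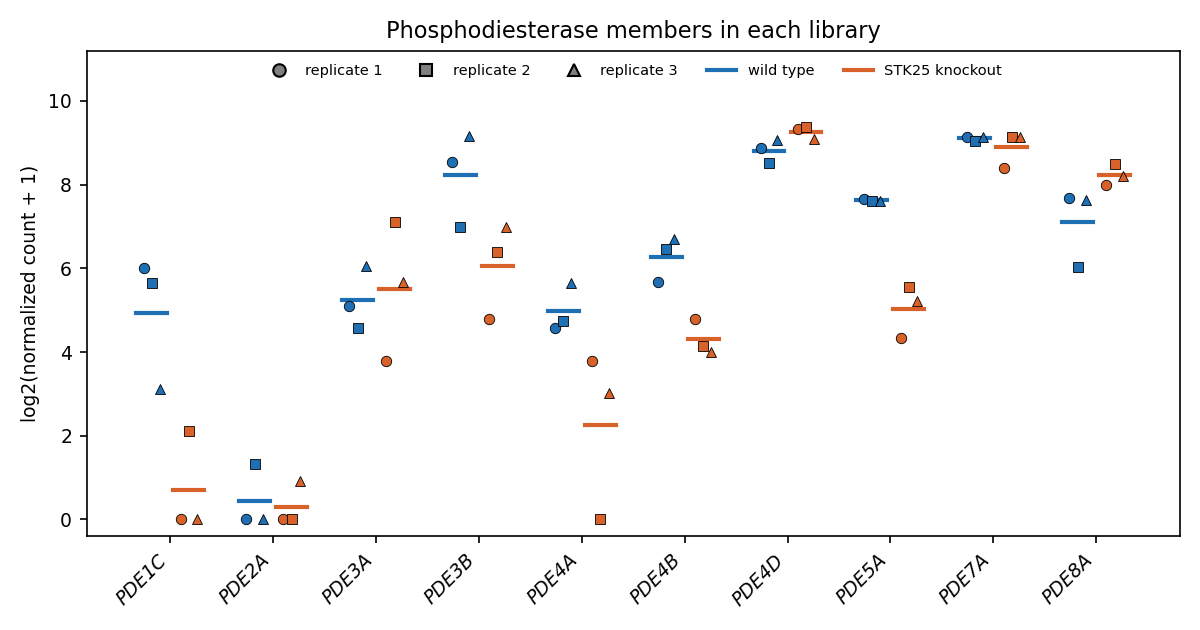
Normalized counts of each phosphodiesterase in every library on a log2(value + 1) axis, with circles, squares and triangles for replicates 1, 2 and 3 of the wild type (blue) and the knockout (orange) and horizontal lines at the means of the plotted values. PDE5A lies between 193 and 199 normalized counts in the wild type and between 19.1 and 45.7 in the knockout, whereas the genotypes of PDE3A and PDE7A overlap.

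PDE5A, the cGMP-specific enzyme that sildenafil inhibits, had the smallest adjusted p of the 9. It had 199, 193 and 196 normalized counts in wild-type replicates 1, 2 and 3, and 19.1, 45.7 and 36.4 in knockout replicates 1, 2 and 3. The wild-type libraries lay almost on one another, and each knockout library was below all of them. These values rest on 132, 254 and 307 reads in the wild type and 15, 41 and 41 in the knockout. The wild-type libraries lay closer than counting error on such read numbers would place them, so their SD is no measure of precision. The means were 196 ± 2.98 and 33.7 ± 13.5 (SD, n = 3 each), so the knockout held 17.2% of the wild-type mean, a 5.82-fold difference. The log2 fold change was -2.59 (SE 0.42, 95% interval -3.55 to -1.63, limma adjusted p = 0.00723). PDE5A stayed past the threshold under all 19 alternatives, with adjusted p-values up to 0.0453.

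The gene (ENSG00000138735.15) has 12 transcripts and spans chromosome 4, 119494395 to 119628991, minus strand, in the GENCODE 29 annotation of GRCh38, which also gives all other gene positions. Its exons share 542 bases with the exons of AC093752.1 (ENSG00000245958.6), a transcribed pseudogene on the opposite strand (chromosome 4, 119454791 to 119552025), named here for that overlap after its values were seen. AC093752.1 had 1690, 1358 and 1276 normalized counts in the wild type and 510, 565 and 791 in the knockout. It too was lower in STK25KO, by a log2 fold change of -1.23 (SE 0.24, limma adjusted p = 0.0164). Of the 31-base words in PDE5A transcripts, 4.71% also occurred in transcripts of other genes. Whether reads of the pseudogene were counted for PDE5A was not tested, and the sources used here do not say whether counting used strand.

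Promoter sequences are shown for PDE5A and for the 3 PDE4 genes, because they include members lying wholly below the wild type and 1 (PDE4D) lying wholly above it, and because PDE4 genes are known to include targets of the cAMP-responsive factor CREB. Each stretch runs from 200 bases before to 20 bases after an annotated start, 5′ to 3′ on the gene's strand, from RefSeq on GRCh38.p14. The letters searched were the cAMP response element TGACGTCA, which reads the same on both strands, and its core TGACG on either strand (CGTCA on the other), including cores inside the full element. Capitals mark these matches.
PDE5A, chr4:119628785-119629004, minus strand: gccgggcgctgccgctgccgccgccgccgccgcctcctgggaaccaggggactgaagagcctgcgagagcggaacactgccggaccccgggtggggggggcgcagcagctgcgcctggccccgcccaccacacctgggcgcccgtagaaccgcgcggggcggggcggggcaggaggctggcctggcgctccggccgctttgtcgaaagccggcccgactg
PDE4A, chr19:10416573-10416792, plus strand: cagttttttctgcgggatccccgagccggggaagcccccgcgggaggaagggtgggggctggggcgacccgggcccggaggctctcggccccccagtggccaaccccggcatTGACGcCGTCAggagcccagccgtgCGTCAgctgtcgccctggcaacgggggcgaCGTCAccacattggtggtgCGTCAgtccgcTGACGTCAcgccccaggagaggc
PDE4B, chr1:65792310-65792529, plus strand: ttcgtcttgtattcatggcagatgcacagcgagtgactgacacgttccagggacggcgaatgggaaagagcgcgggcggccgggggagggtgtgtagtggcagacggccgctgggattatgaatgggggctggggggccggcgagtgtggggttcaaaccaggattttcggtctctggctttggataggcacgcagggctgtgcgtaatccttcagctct
PDE4D, chr5:59587606-59587825, minus strand: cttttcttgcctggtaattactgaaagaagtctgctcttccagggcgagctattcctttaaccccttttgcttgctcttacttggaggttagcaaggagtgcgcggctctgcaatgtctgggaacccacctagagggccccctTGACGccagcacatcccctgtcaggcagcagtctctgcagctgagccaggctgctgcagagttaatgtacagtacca

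The RefSeq table held 33 promoter windows of 300 bases for 8 of the 10 genes; PDE3B and PDE7A had no entry. The full element occurred in 1 of the 33, the PDE4A window shown, where it begins 3 bases before the start. That window held 7 cores in all, and the other 4 PDE4A windows held none. A core occurred in 1 of 8 PDE4D windows, the one shown. It also occurred in 1 of 3 PDE5A windows, chr4:119627991-119628290, which is not the one shown. There it begins 28 bases after that window's own annotated start. None of the 6 PDE4B windows, the 6 of PDE1C, the 3 of PDE8A or the single windows of PDE2A and PDE3A held these letters. Among all 35116 windows of this length, 1.85% held the full element and 24.6% the core. A match is a description of the letters only.

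PDE1C, a phosphodiesterase that calcium and calmodulin activate and that acts on both messengers, was near the detection limit in the knockout. It had 63.4, 49.5 and 7.65 normalized counts in the wild type, and 0, 3.34 and 0 in the knockout. Wild-type replicate 3 was well below the other wild-type libraries and still above every knockout library. The reads numbered 42, 65 and 12 against 0, 3 and 0. Over the pooled reads and depths, the knockout rate was 3.18% of the wild-type rate, with an exact 95% interval of 0.646% to 9.52% that covers counting error only. The fitted log2 fold change was -4.22 (SE 1.09, limma adjusted p = 0.0425). The size depends on the pseudocount, and the call was lost in 9 of 18 alternatives, over which the adjusted p ran from 0.00269 to 0.178. It was lost without wild-type replicate 1 (adjusted p = 0.178) or 2 (0.119), without knockout replicate 1 (0.0671) or 3 (0.123), and with edgeR (0.0503). PDE1C spans chromosome 7, 31751179 to 32299329, minus strand.

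PDE2A, which cGMP stimulates and which also acts on both messengers, had 0, 2 and 0 reads in the wild type and 0, 0 and 1 in the knockout. It spans chromosome 11, 72576141 to 72674591, minus strand. No library exceeded 3 reads, so no fold is given and a difference was not detectable at this depth.

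PDE3A and PDE3B are the enzymes whose cAMP hydrolysis cGMP inhibits, and they are the targets of milrinone. PDE3B had 373, 126 and 572 normalized counts in the wild type and 26.7, 83.6 and 125 in the knockout. The groups did not overlap, but wild-type replicate 2 and knockout replicate 3 were almost equal. The means were 357 ± 224 and 78.5 ± 49.5 (SD, n = 3 each), or 22.0% of the wild type, and the log2 fold change of -2.17 (SE 0.72, limma adjusted p = 0.0910) did not pass. Wild-type replicate 2 and knockout replicate 1 were the lowest of their genotypes; without both, the log2 fold change was -2.16 with an adjusted p of 0.00273, and without wild-type replicate 2 alone it was -2.80 (0.0473). DESeq2 on the recovered reads also put it past the threshold (0.00811), and over all 19 alternatives the adjusted p ran from 0.00273 to 0.268.

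PDE3A, the paralog best known from heart muscle, had 33.2, 22.9 and 65.1 normalized counts in the wild type and 12.7, 136 and 49.8 in the knockout. The knockout libraries spanned the wild-type range on both sides. The means were 40.4 ± 22.0 and 66.2 ± 63.2 (SD, n = 3 each), and the log2 fold change of 0.27 (SE 0.85, 95% interval -1.70 to 2.25, limma adjusted p = 0.880) was smaller than the spread between replicates. It was -0.52 without knockout replicate 2 and -0.058 without wild-type replicate 2. PDE3A spans chromosome 12, 20369245 to 20684381, plus strand, and PDE3B chromosome 11, 14643723 to 14872044, plus strand.

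The PDE4 genes encode cAMP-specific enzymes that rolipram inhibits and that anchoring proteins hold at particular sites in the cell. PDE4B, known as a cAMP-induced form, had 49.8, 86.8 and 103 normalized counts in the wild type and 26.7, 16.7 and 15.1 in the knockout. Every knockout library was below every wild-type library. These rest on 33, 114 and 162 reads against 21, 15 and 17. The means were 80.0 ± 27.4 and 19.5 ± 6.28 (SD, n = 3 each), or 24.4% of the wild type, with a log2 fold change of -1.96 (SE 0.49, 95% interval -3.10 to -0.82, limma adjusted p = 0.0384). The call was lost when any 1 library other than knockout replicate 1 was left out. Those 5 adjusted p-values were 0.0720, 0.0975 and 0.155 without wild-type replicates 1, 2 and 3, and 0.0964 and 0.117 without knockout replicates 2 and 3; over all 18 alternatives they ran from 0.00208 to 0.155. PDE4B spans chromosome 1, 65792514 to 66374579, plus strand, with 18 transcripts.

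PDE4A had 22.7, 25.9 and 49.1 normalized counts in the wild type and 12.7, 0 and 7.11 in the knockout. All 3 knockout libraries were below the wild type, at 10, 0 and 8 reads. The log2 fold change was -2.72 (SE 1.04, 95% interval -5.13 to -0.31, limma adjusted p = 0.136), which did not pass. Without wild-type replicate 2 and knockout replicate 1 together it was -3.60 with an adjusted p of 0.0387, and over all 18 alternatives the adjusted p ran from 0.0387 to 0.341. PDE4A, with the full response element in 1 of its 5 promoter windows, spans chromosome 19, 10416773 to 10469631, plus strand. Which start was used in these cells was not tested.

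PDE4D, the PDE4 form found in complexes with the ryanodine receptor and beta-adrenergic receptors, went the other way. It had 467, 366 and 533 normalized counts in the wild type and 644, 668 and 541 in the knockout. Each knockout library was above each wild-type library, although wild-type replicate 3 and knockout replicate 3 nearly met. The means were 455 ± 84.1 and 618 ± 67.3 (SD, n = 3 each), and the log2 fold change of 0.45 (SE 0.24, 95% interval -0.10 to 1.01, limma adjusted p = 0.273) did not pass, nor did it under any of the 19 alternatives. PDE4D spans chromosome 5, 58969038 to 60522120, minus strand, with 29 transcripts.

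PDE7A and PDE8A encode cAMP-specific enzymes that rolipram does not inhibit. PDE7A had 562, 526 and 559 normalized counts in the wild type and 336, 566 and 565 in the knockout. Knockout replicate 1 was the lowest library, and the other two knockout libraries were slightly above all wild-type libraries. The log2 fold change was -0.21 (SE 0.27, 95% interval -0.83 to 0.42, limma adjusted p = 0.686), and 0.043 without knockout replicate 1. PDE7A spans chromosome 8, 65717510 to 65842322, minus strand and shares 116 exonic bases with MTFR1 on the opposite strand.

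PDE8A had 205, 64.0 and 196 normalized counts in the wild type and 252, 359 and 292 in the knockout. All 3 knockout libraries were above the wild type, and wild-type replicate 2 was far below the other wild-type libraries. The means were 155 ± 79.2 and 301 ± 54.1 (SD, n = 3 each), with a log2 fold change of 1.11 (SE 0.48, unadjusted p = 0.0489, limma adjusted p = 0.179), which did not pass. Without wild-type replicate 2 it was 0.57, and over the 19 alternatives the adjusted p ran from 0.0965 to 0.372. PDE8A spans chromosome 15, 84980440 to 85139145, plus strand.

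**Figure D2:**
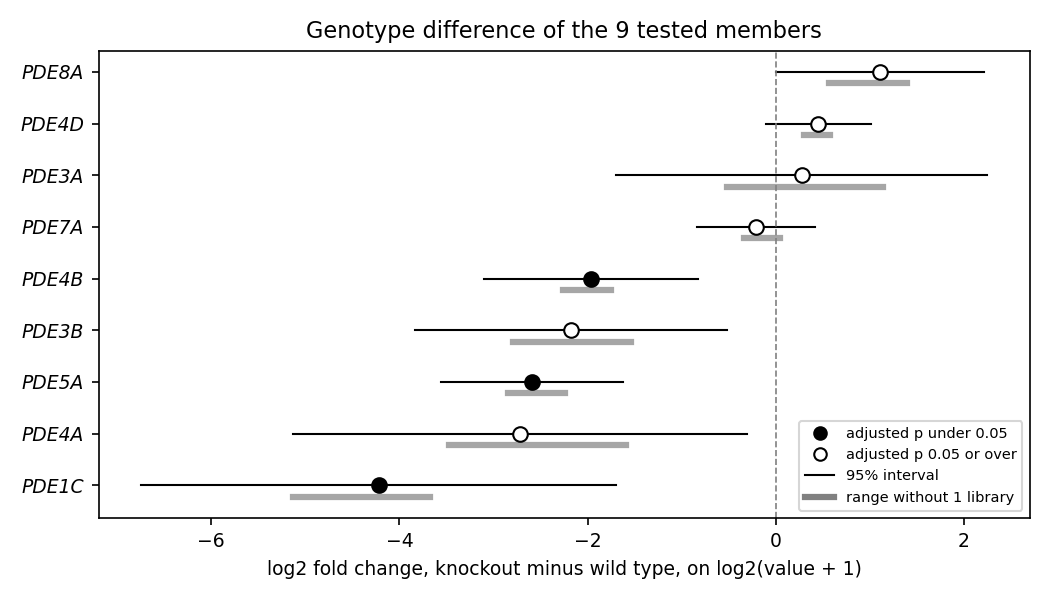
Log2 fold change of each tested phosphodiesterase, knockout minus wild type, with 95% intervals from limma; filled points have an adjusted p under 0.05. PDE1C, PDE4B and PDE5A are filled and lie below 0, while PDE4D at 0.45 and PDE8A at 1.11 lie above 0 and are open.

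Levels of different genes were compared as normalized counts per kilobase of each gene's median annotated transcript length. In the wild type the order of these levels was PDE7A (583 ± 21.1), PDE4D (437 ± 80.9), PDE5A (283 ± 4.30), PDE4B (134 ± 45.9), PDE3B (97.4 ± 61.0), PDE8A (59.9 ± 30.6), PDE1C (51.1 ± 36.9), PDE3A (13.6 ± 7.41), PDE4A (13.1 ± 5.82) and PDE2A (0.831 ± 1.44) (SD, n = 3 each). Neighbours in this order from PDE4B down to PDE4A overlapped between libraries, so with this length only the 3 highest and the lowest had a place of their own. In the knockout PDE4D (594 ± 64.7) and PDE7A (519 ± 141) overlapped at the top, PDE8A followed (116 ± 20.9), and PDE5A (48.7 ± 19.5) and PDE4B (32.7 ± 10.5) came next and overlapped (SD, n = 3 each). The order depends on the transcript length used. With each gene's longest transcript or its merged exons PDE7A had the highest mean in both genotypes. In the wild type PDE3B then came next and overlapped PDE4D, and PDE5A ranked below both and overlapped PDE8A.

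Shares of the summed level per kilobase of the 10 genes are given as a description, with no test. PDE5A made up 17.0% ± 1.79 of this sum in the wild type and 3.49% ± 0.994 in the knockout (SD, n = 3 each). PDE4D made up 26.0% ± 2.02 and 44.3% ± 8.01, and PDE8A 3.48% ± 1.59 and 8.52% ± 0.371 (SD, n = 3 each). PDE7A, at 35.1% ± 2.82 and 37.8% ± 6.69, overlapped between the genotypes. The sum itself was 1478 to 1845 in wild-type and 1162 to 1549 in knockout libraries, and these ranges overlap. The shares depend on which transcript length is used: with the longest transcript PDE5A had 7.85% in the wild type and 1.50% in the knockout.

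**Figure D3:**
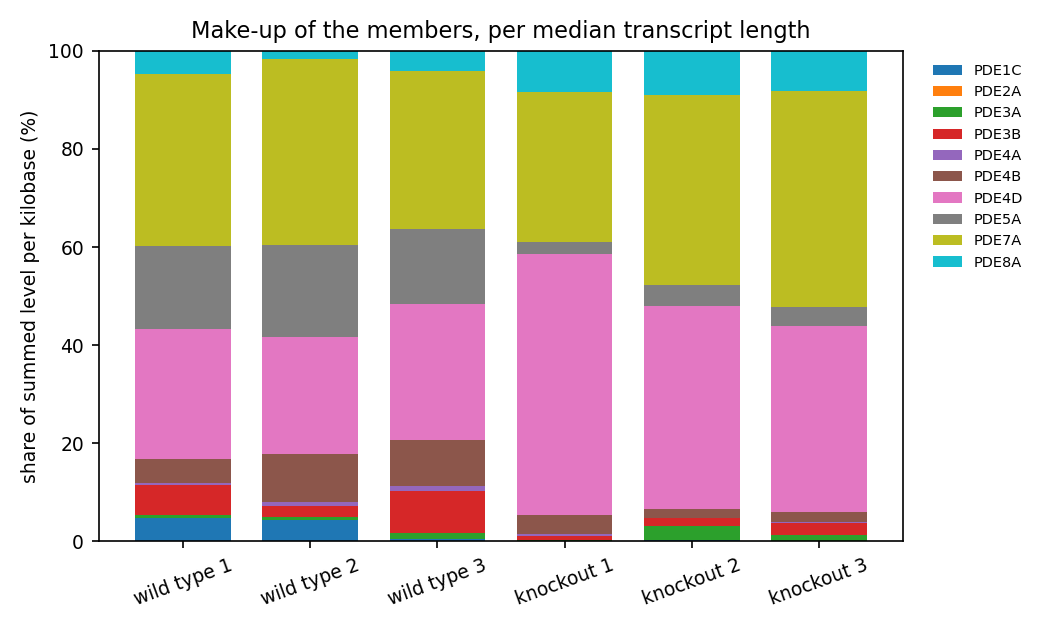
Share of each phosphodiesterase in the summed normalized count per kilobase of the 10 genes, in percent, one stacked bar per library. The PDE5A segment averages 17.0% in the wild type and 3.49% in the knockout, and the PDE4D segment 26.0% and 44.3%.

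Grouped by substrate, the cAMP-specific genes held 71.7%, 73.8% and 74.5% of the summed level per kilobase in the wild type and 96.6%, 91.0% and 92.3% in the knockout. The genes for enzymes that act on both messengers held 9.61% ± 2.12 and 3.18% ± 1.94 (SD, n = 3 each), without overlap. With merged exons that share was 18.8% and 8.36%, and the genotypes overlapped. The cAMP-specific share was higher in every knockout library under each of the 3 transcript lengths. It also rises when genes of the other classes fall, and PDE1C, PDE3B and PDE5A lay wholly below the wild type. A higher share is therefore no measure of a higher cAMP-specific level. When all 21 catalytic phosphodiesterase genes were counted, the cAMP-specific share was 29.9% ± 5.57 and 41.1% ± 7.54 and the cGMP-specific share 56.7% ± 6.23 and 49.5% ± 9.91 (SD, n = 3 each), and both overlapped between genotypes. With the longest transcript that cGMP-specific share was 46.5% and 46.8%, so its direction turned. Among the 21 genes, those acting on both messengers held 13.4% ± 0.660 in the wild type and 9.32% ± 2.44 in the knockout (SD, n = 3 each). This share did not overlap between genotypes under any of the 3 transcript lengths. PDE6B, a rod photoreceptor subunit, belongs to that larger set at 1120 ± 273 normalized counts in the wild type and 728 ± 280 in the knockout (SD, n = 3 each; limma adjusted p = 0.224).

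Within the PDE3 and PDE4 subfamilies the balance between paralogs differed without overlap, as ratios of levels per kilobase. The ratio of PDE3A to PDE3B was 0.110, 0.224 and 0.140 in the wild type and 0.588, 2.01 and 0.490 in the knockout. Knockout replicate 2 was the only library with more PDE3A than PDE3B. The ratio of PDE4B to PDE4D was 0.186, 0.414 and 0.338 in the wild type and 0.0722, 0.0436 and 0.0486 in the knockout. PDE4A to PDE4D was 0.0204, 0.0297 and 0.0387 against 0.00828, 0 and 0.00551. None of these 3 ratios overlapped between genotypes, and no test was made on them. Among single tested genes, 17.2% lay wholly below and 16.2% wholly above, and no such share was computed for ratios. The PDE3 ratio joins genes that were each not called. For both PDE4 ratios the lack of overlap adds nothing to the single genes. In the knockout PDE4A and PDE4B lay wholly below the wild type and PDE4D wholly above, which fixes the separation. The PDE4A ratio also rests on 10, 0 and 8 PDE4A reads in the knockout. Another transcript length would multiply a ratio by 1 constant in all libraries, so it changes the size of a ratio and not the overlap.

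**Figure D4:**
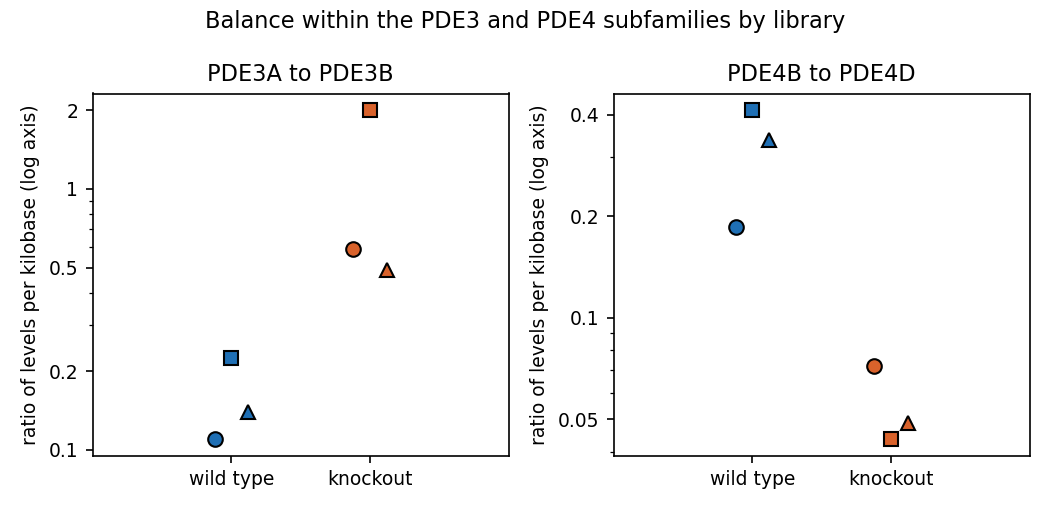
Ratio of levels per kilobase of PDE3A to PDE3B (left) and PDE4B to PDE4D (right) in each library, on log axes, with circles, squares and triangles for replicates 1, 2 and 3. The PDE3A to PDE3B ratio is at most 0.224 in the wild type and at least 0.490 in the knockout, and the PDE4B to PDE4D ratio is at least 0.186 and at most 0.0722.

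The other 11 catalytic phosphodiesterase genes were read in the same fit, and 9 were tested. Counts for this and the following lists stand beside 6.79% of all tested genes called lower and 5.97% called higher. PDE1B, another calcium and calmodulin activated enzyme, had 195, 234 and 175 normalized counts in the wild type and 5.08, 47.9 and 4.44 in the knockout. It was lower in every knockout library, with a log2 fold change of -4.10 (SE 0.83, limma adjusted p = 0.0183), a call lost without any 1 wild-type library or without knockout replicate 3 (adjusted p up to 0.0771). PDE1A, the third gene of that subfamily, had means of 383 ± 154 and 191 ± 26.7 (SD, n = 3 each) and did not pass (-0.93, limma adjusted p = 0.127). PDE9A, a cGMP-specific enzyme, had 195, 123 and 182 normalized counts in the wild type and 442, 406 and 322 in the knockout. It was higher in every knockout library, at a log2 fold change of 1.24 (SE 0.29, limma adjusted p = 0.0323), but the call was lost when any 1 library was left out (adjusted p up to 0.0958) and, over all alternatives, the adjusted p reached 0.114. The other 7 tested genes did not pass, PDE11A among them at -2.27 (limma adjusted p = 0.0714). PDE11A reached the mean of 10 only through the wild type, and with it the median of the 9 was -0.71 beside 0.0052 for all tested genes.

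**Figure D5:**
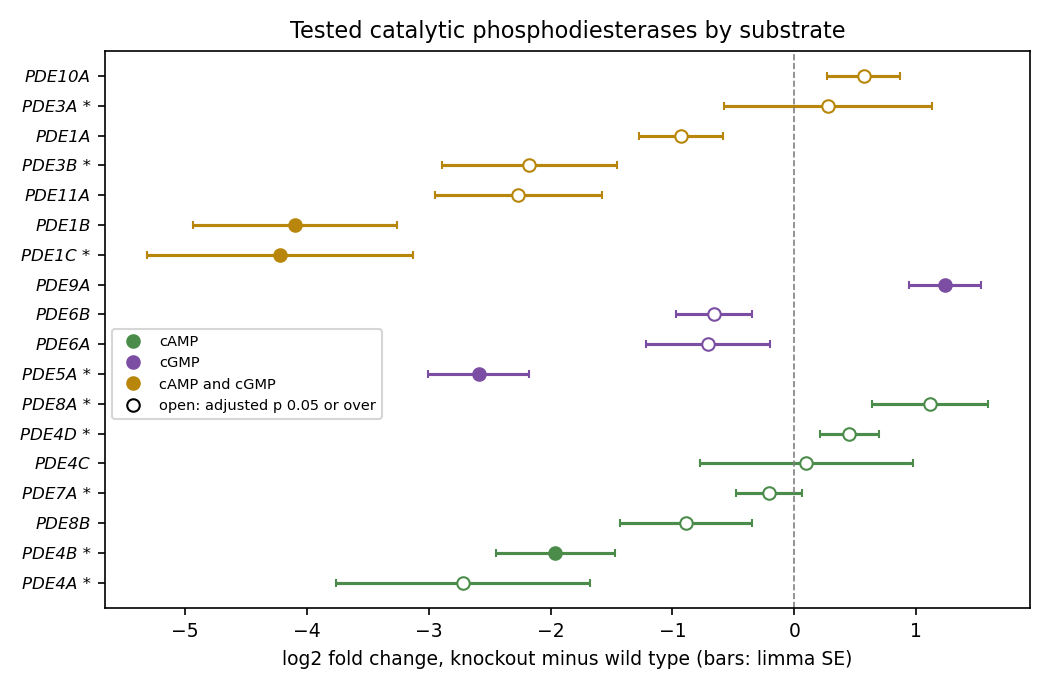
Log2 fold changes of the 18 tested catalytic phosphodiesterase genes, knockout minus wild type, with limma standard errors, grouped by substrate; an asterisk marks the genes listed at the opening and filled points have an adjusted p under 0.05. PDE9A at 1.24 is filled on the higher side, and PDE1B at -4.10, PDE1C, PDE4B and PDE5A are filled on the lower side.

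Genes that bind phosphodiesterases were read as partners, and 12 of 14 were tested with 0 higher and 1 lower. DISC1, a scaffold known to bind PDE4 enzymes, had 652 ± 184 normalized counts in the wild type and 141 ± 64.2 in the knockout (SD, n = 3 each). Its log2 fold change was -2.25 (SE 0.39, limma adjusted p = 0.00984), and without wild-type replicate 1 the adjusted p was 0.0576, the highest over its 19 alternatives. The 3 PDE6 small subunit genes gave 1 call in 2 tested, PDE6D, a prenyl-binding protein, which was higher at 3343 ± 565 against 1654 ± 272 (SD, n = 3 each), by 1.01 on the log2 scale (limma adjusted p = 0.0220). That call was lost without knockout replicate 3 or without either of wild-type replicates 1 and 3 (adjusted p up to 0.0930, and 0.111 over all alternatives).

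On the cGMP side, 7 of 11 synthesis genes were tested, with 0 higher and 2 lower. GUCY1A1, the alpha subunit of the nitric oxide receptor guanylyl cyclase, had 12479, 9211 and 11348 normalized counts in the wild type and 3182, 4437 and 4508 in the knockout. The genotypes were far apart, with a log2 fold change of -1.45 (SE 0.22, limma adjusted p = 0.00568) that held in all 19 alternatives. Its beta partner GUCY1B1 had 500 ± 74.9 and 506 ± 133 (SD, n = 3 each; limma adjusted p = 0.996). NOS3, which makes nitric oxide, fell from 194 ± 36.4 to 46.8 ± 19.6 (SD, n = 3 each), a log2 difference of -2.09 (limma adjusted p = 0.0158), with adjusted p-values up to 0.0771 when 1 library was left out. NOS3 is also an endothelial gene, and the part of endothelial cells in its value was not tested. Of 4 cGMP effectors 2 were tested and none was called, the kinase gene PRKG1 at -0.32 (limma adjusted p = 0.717).

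On the cAMP side, all 12 synthesis genes were tested, with 1 higher and 2 lower and a median of 0.03. The G protein gene GNAL rose from 362 ± 121 to 934 ± 113 normalized counts (1.41, limma adjusted p = 0.0197), while ADCY6 fell from 2592 ± 469 to 1401 ± 259 (-0.89, limma adjusted p = 0.0433) and ADCY8 from 48.3 ± 6.20 to 4.24 ± 4.47 (-3.76, limma adjusted p = 0.0337) (SD, n = 3 each). ADCY8 reached the mean of 10 only through the wild type. Among 14 cAMP effectors POPDC2, a cAMP-binding membrane protein, rose from 9667 ± 487 to 24477 ± 6586 (SD, n = 3 each), by 1.31 on the log2 scale (limma adjusted p = 0.0104). Among 3 export genes ABCC4, a cyclic nucleotide efflux pump, fell from 61.3 ± 11.6 to 15.9 ± 4.99 (SD, n = 3 each; -1.91, limma adjusted p = 0.0399), a call lost in each fit that left out 1 library (adjusted p up to 0.157). Of these, GNAL, ADCY6, ADCY8 and POPDC2 each lost the call in at least 2 of the 6 such fits, with adjusted p-values up to 0.182.

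Of 18 genes known to be induced through CREB, 2 were higher (BDNF at 3.15 and GEM at 2.02), 3 lower (EGR1 at -2.97, ATF3 at -1.08 and CITED2 at -0.81) and 13 did not pass, with a median log2 fold change of 0.45 that includes NR4A3 and SIK1, which reached the mean of 10 only through the knockout. BDNF and GEM kept their calls in all 19 alternatives, while EGR1, ATF3 and CITED2 each lost theirs in at least 3 of the 6 limma fits that left out 1 library (adjusted p up to 0.112). PDE4B is known to be induced in the same way in other cells.

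The chromosomal surroundings of the 3 called phosphodiesterases were read from the tested genes within 1 Mb. For comparison, 12.8% of all tested genes were called, 6.79% lower and 5.97% higher. Around PDE5A 3 of 12 neighbours were called, all lower, AC093752.1 among them, and the median was 0.03. Around PDE1C 3 of 14 were called, all higher, with a median of 0.40, and around PDE4B 1 of 11, lower, with a median of -0.25. The members' transcripts hardly shared sequence: any pair of the 10 genes had at most 2 words of 31 bases in common.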

How the data were processed

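RNA was taken with a column kit including DNase digestion, and libraries were made with the Clontech Ultra Low v4 and NexteraXT kits, per the labels' protocols. bcl2fastq 2.19, kallisto 0.44.0, DESeq2 1.28.1 and GRCh38 are named in the submitters' processing notes, with no roles given. The authors deposited 1 table of normalized counts, a signal per gene and library in which 100% of values were whole multiples of 1 step per library (tolerance 1e-06). The whole numbers recovered from it, called reads here, totalled 22443904 to 53224112 per library; whether they were estimated counts rounded before scaling is not given in the sources used here. Floors of 3 reads and the interval on pooled PDE1C reads cover counting error only, while the intervals of log2 fold changes come from limma's fit. Every replicate pair of a genotype differed beyond sampling noise (20.0 to 391 as chi-square over its degrees of freedom), so each library counted as 1 replicate.

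Values were tested in R 4.3.3 with limma 3.58.1 (lmFit, eBayes with a trend) on log2(value + 1), which understates changes of low genes, for the 15536 genes with a mean of at least 10, with Benjamini-Hochberg adjustment over all of them and a threshold of 0.05. Alternatives were other pseudocounts, filters and scalings, variance settings, a replicate block, each library left out, edgeR 4.0.16 and DESeq2 1.42.0 on the recovered reads, and, chosen after seeing the data, a fit without both libraries that stood apart. The limma, edgeR and DESeq2 fits were also run on simulated counts with a common dispersion and independent libraries. Those counts lack the difference that set some libraries apart here, so that run checks the code only. Positions and lengths came from GENCODE 29, matched by symbol (97.7% of tested genes, and all 10 members), and promoters from RefSeq on GRCh38.p14. Protein sequences were not used here.

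The named genes are the 10 members, STK25, and genes of the other lists past the threshold or described by level. The members and all lists (phosphodiesterases, PDE6 small subunits, partners, cAMP and cGMP synthesis and effectors, export, CREB-induced genes and cell type markers) were chosen with earlier results of these data known. Counts of list members are given in place of list tests. One result among the cAMP effectors is not reported here.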

Additional observations from a re-analysis of the deposited data

How the results depend on the processing

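The count of 1982 genes with a limma adjusted p under 0.05 was 3210 with DESeq2, 4483 without wild-type replicate 2 and knockout replicate 1, and 796 to 2181 when 1 library was left out. Equal library totals moved the median of all genes to -0.27 and the share of called genes that were higher from 46.8% to 27.4%; no member changed direction with it. For PDE1C the log2 fold change of -4.22 was past the threshold no longer with a pseudocount of 0.1 (-6.48) or 10 (-1.95), with edgeR (-5.06) or without the 2 libraries that stood apart (-3.50), and it was between -5.13 and -3.68 over the fits that left out 1 library. PDE4B was over the threshold without the filter on low values (-1.96, adjusted p = 0.0802) and was between -2.26 and -1.75 over those fits. PDE3B passed with DESeq2 (-2.18) and without the 2 libraries (-2.16), and was between -2.80 and -1.54 over those fits. PDE4A passed without the 2 libraries (-3.60) and was between -3.48 and -1.59 over those fits. PDE3A turned to -0.058 without wild-type replicate 2 and to -0.52 without knockout replicate 2, and was between -0.52 and 1.14 over the fits that left out 1 library. PDE7A turned to 0.043 without knockout replicate 1 and to 0.013 without the 2 libraries; it was between -0.33 and 0.043 over the fits that left out 1 library, and -0.49 with equal totals. The causes were not tested. PDE4D, PDE5A and PDE8A kept their direction and their side of the threshold in all 19 alternatives. A mean of at least 50 left PDE1C, PDE4A and PDE4B untested. Of 100 alternative values of the shares, 27 moved by more than the spread between replicates. All 27 came from another transcript length. Leaving out 1 of 3 libraries cannot shift a mean by the SD of those libraries, so those alternatives could not count as moved.

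Same-numbered libraries of the genotypes did not clearly deviate together (correlations -0.23, -0.40 and 0.17). With 3 libraries per genotype these values cannot exclude that the numbers pair the samples. The highest correlation between a wild-type and a knockout library was 0.45, for wild-type replicate 2 and knockout replicate 1, the libraries that stood apart. With the replicate number as a block, 798 genes were called, PDE1C (-4.22, adjusted p = 0.0766) and PDE4B (-1.96, adjusted p = 0.132) were over the threshold, and PDE5A was under it (adjusted p = 0.0329).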
